A study of Mus musculus with 4 samples.

Results

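The core circadian clock genes were examined in the gastrocnemius, a calf muscle made mostly of fast fibres, as the rows named Per1, Per2, Per3, Cry1, Cry2, Arntl, Clock, Nr1d1, Nr1d2 and Dbp. All 10 were among the 22252 gene names of the tables, all 10 had counts above 0 in each of the 4 libraries, as did 14206 genes in all, and all 10 had at least 100 counts in each library, as did 9068 genes. The tissue came from 7-week-old male C57BL/6J mice of 4 groups, and every mouse carried 2 floxed alleles of the glucocorticoid receptor (GR) gene Nr3c1. Lean GRf/f mice had no Cre and an intact leptin gene (Lep+/+), and lean GRmKO mice carried 1 Cre allele on the same lean background. The ob/ob GRf/f mice had no Cre and lacked leptin through the Lep ob allele on both chromosomes, which makes mice overeat and become obese, and ob/ob GRmKO mice combined that background with 1 Cre allele. The Cre was driven by Acta1, the skeletal actin gene, so that exon 3 of Nr3c1 was removed in muscle fibres but not in the other cells of the muscle. Each group was 1 library made from pooled RNA of 3 mice, so no spread between mice was available and no test between groups was possible. The time of day at which the muscles were taken, and whether these mice had been fed or fasted, are not given in the sources used here.

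In the mammalian clock, BMAL1 (encoded by Arntl) and CLOCK pair on E-box elements and switch on the Per and Cry genes, whose proteins return to block them. The same pair drives Nr1d1 and Nr1d2, which encode the repressors REV-ERBα and REV-ERBβ; these compete with the activating ROR receptors at RORE elements and so set the rhythm of Arntl. Dbp, also driven through E-boxes, encodes an activator of D-box elements and is among the strongest rhythmic outputs in peripheral tissues. Arntl and the E-box-driven genes peak at nearly opposite times of day in muscle, and glucocorticoids, which reset peripheral clocks, switch on Per1 directly through GR.

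Sequence windows around these elements are shown for the clock genes whose promoters held them, because the loop described above runs through them. RefSeq promoters on GRCm38.p6, each covering 250 bases before to 50 bases after a start site, were at hand for 9 of the 10 genes, all except Per2. Both strands were searched for the E-box CACGTG, the E′-box CACGTT, the D-boxes TTATGTAA and TTACGTAA, the RORE, and the glucocorticoid response element, AGAACA followed after 3 bases of any kind by TGTTCT. Windows of 30 bases are written 5′ to 3′ on the strand of the gene, with the element in capitals (an E′-box on the other strand reads AACGTG). The Per1 E-box lies 166 bases before a start site (chr11:69098771-69098800, plus strand) that is inside the gene, whose annotated span begins at chr11:69095217. The Cry1 E-box lies 60 bases before the start (chr10:85185097-85185126, minus strand) and the one shown of 3 at Ciart, a partner gene described below, 58 bases before it (chr3:95882269-95882298, minus strand). The E′-boxes of Cry2 (chr2:92434218-92434247, minus strand) and Nr1d1 (chr11:98775388-98775417, minus strand) lie 166 and 28 bases before the start, the Per3 D-box shown lies 205 bases before it (chr4:151044852-151044881, minus strand), and the Arntl RORE lies 26 bases after it (chr7:113207528-113207557, plus strand).
Per1 E-box: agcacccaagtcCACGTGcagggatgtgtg
Cry1 E-box: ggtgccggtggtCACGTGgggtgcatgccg
Ciart E-box: cgcagggggaggCACGTGcagaaccgcacg
Cry2 E′-box: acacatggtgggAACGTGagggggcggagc
Nr1d1 E′-box: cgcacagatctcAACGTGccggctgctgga
Per3 D-box: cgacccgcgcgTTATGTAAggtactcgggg
Arntl RORE: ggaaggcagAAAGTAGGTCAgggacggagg

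Cry1 held an E′-box as well, 79 bases before the start, and Per3 a second TTATGTAA, 158 bases before it. Of all 32851 promoters in that table, 7.15% held CACGTG, 4.68% CACGTT, 0.938% TTATGTAA, 0.119% TTACGTAA, 0.384% the RORE and 0.00913% the glucocorticoid response element. In these short windows none of the letters searched were found for Clock, Nr1d2 and Dbp, and the glucocorticoid response element was found in none of the 9 genes, Per1 included. A match or its absence describes the window only.

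The libraries held between 19897754 and 20959781 expected counts, of which 45.3% to 48.3% fell on the 50 most abundant genes. Levels are given in counts-per-million of the library total (CPM), with exact Poisson 95% intervals that cover counting error only, and a count of 3 corresponded to between 0.143 and 0.151 CPM. The targeted gene Nr3c1 stood at 125 and 67.0 CPM in the lean GRf/f and lean GRmKO libraries and at 102 and 39.1 CPM in the ob/ob GRf/f and ob/ob GRmKO libraries, lower without muscle GR on both backgrounds. A gene was counted as different when the ratio of its CPM between libraries was at least 2-fold. The median gene itself lay below 0 in the ob/ob to lean comparisons, with a log2 ratio of -0.11 in GRf/f and -0.21 in GRmKO, and at 0.05 (lean) and -0.04 (ob/ob) in the GRmKO to GRf/f comparisons. Markers of muscle fibres summed to between 110886 and 128266 CPM in the 4 libraries, and all 10 were measured. From here on, 4 values in a row stand for lean GRf/f, lean GRmKO, ob/ob GRf/f and ob/ob GRmKO muscle in that order.

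The 10 genes differed in pattern. Per1 and Per2 were highest in lean GRf/f muscle, Dbp was high in both lean libraries and low in both ob/ob libraries, and the highest library was only 1.14-fold to 1.2-fold above the lowest for Per3, Cry1, Cry2 and Clock. Arntl, Nr1d1 and Nr1d2 lay between, with the highest library 1.58-fold, 1.61-fold and 1.36-fold above the lowest. The highest library was at least 2-fold above the lowest for 3 of the 10 genes, against 9.26% of the 9068 genes with at least 100 counts, and the median of this ratio was 1.47 for the 10 genes and 1.37 for those 9068.

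**Figure D1:**
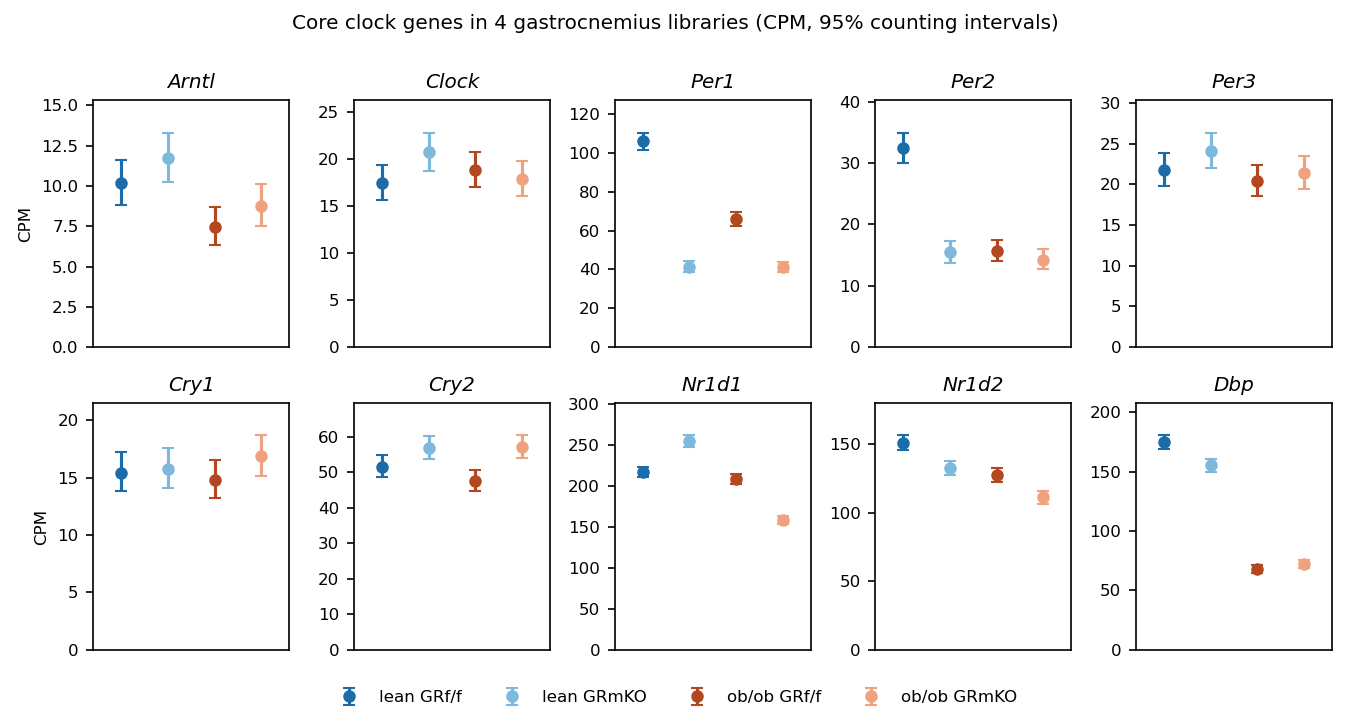
Levels of the 10 core clock genes in CPM (vertical axis, starting at 0) in the lean GRf/f, lean GRmKO, ob/ob GRf/f and ob/ob GRmKO libraries, 1 point per library of 3 pooled mice with its exact Poisson 95% interval. Per2 is high in lean GRf/f muscle only (32.4 CPM), Per1 is highest there (106 CPM) and lowest in both GRmKO libraries (41.2 CPM), and Dbp separates lean from ob/ob libraries.

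Neither activator of the clock reached a 2-fold difference, the highest library being 1.58-fold above the lowest for Arntl and 1.19-fold for Clock. Arntl was found at 10.2 CPM in lean GRf/f and 11.7 CPM in lean GRmKO muscle, and at 7.42 CPM in ob/ob GRf/f and 8.74 CPM in ob/ob GRmKO muscle. Both ob/ob libraries lay below both lean libraries, although the intervals of lean GRf/f (8.84 to 11.6 CPM) and ob/ob GRmKO (7.52 to 10.1 CPM) overlapped. Its log2 ratio of ob/ob to lean was -0.45 (95% interval -0.76 to -0.14) in GRf/f and -0.42 (-0.71 to -0.14) in GRmKO muscle, or -0.35 and -0.22 when libraries were scaled by TMM, factors that set the typical gene near 0. Without muscle GR it was 0.21 higher on the log2 scale in lean and 0.23 higher in ob/ob mice, with both intervals spanning 0. Clock, the partner of BMAL1, was found at 17.4, 20.7, 18.8 and 17.9 CPM, and all 4 of its intervals overlapped, the largest ratio being 0.25 (0.04 to 0.46) on the log2 scale for lean GRmKO to lean GRf/f muscle.

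Per1, an immediate target of GR and of the E-box activators, was lower without muscle GR on both backgrounds. It stood at 106 CPM (102 to 110.5) in lean GRf/f, 41.2 CPM (38.4 to 44.1) in lean GRmKO, 65.9 CPM (62.5 to 69.5) in ob/ob GRf/f and 41.2 CPM (38.5 to 44.0) in ob/ob GRmKO muscle. The lean GRf/f library was thus highest, ob/ob GRf/f next, and the GRmKO libraries shared the lowest level. Without muscle GR it was 2.57-fold lower in lean mice (log2 ratio -1.36, interval -1.48 to -1.25) and 1.60-fold lower in ob/ob mice (-0.68, -0.80 to -0.55). In ob/ob compared with lean mice it was 1.61-fold lower in GRf/f muscle (-0.68, -0.78 to -0.59), while in GRmKO muscle its log2 ratio was -0.00 with an interval of -0.14 to 0.14 (0.20 with TMM scaling). The obesity effect in GRmKO minus that in GRf/f was 0.68 on the log2 scale (0.51 to 0.85, counting error only), which is arithmetically the same as the effect of GR loss in ob/ob minus that in lean mice.

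Per2, the other main repressor of the Per family, was high in 1 library alone. Its levels were 32.4 CPM (30.02 to 34.97) in lean GRf/f, 15.5 CPM (13.8 to 17.3) in lean GRmKO, 15.7 CPM (14.1 to 17.5) in ob/ob GRf/f and 14.2 CPM (12.7 to 15.9) in ob/ob GRmKO muscle, and the 3 lower libraries overlapped in their counting intervals. It was therefore 2.06-fold lower in ob/ob than in lean GRf/f mice (log2 ratio -1.04, or -0.94 and so under 2-fold with TMM scaling) and 2.10-fold lower without muscle GR in lean mice (-1.07). These comparisons share the lean GRf/f library, so they are not separate observations of Per2. The log2 ratios that do not involve that library were -0.12 for obesity in GRmKO and -0.14 for GR loss in ob/ob muscle, both with intervals spanning 0 (the first was 0.09 under TMM), and the difference between the obesity effects was 0.92 (0.63 to 1.22). Per3, the family member least needed for the rhythm itself, was found at 21.8, 24.1, 20.4 and 21.4 CPM and had no interval apart from the others. Per3 lies within the span of Camta1 on the same strand, but the listed transcripts share 0 exonic bases.

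The cryptochromes, the main repressors of BMAL1 and CLOCK, were close to level. Cry1 was found at 15.4, 15.8, 14.8 and 16.9 CPM, with all 4 intervals overlapping. Cry2 was found at 51.5, 56.9, 47.6 and 57.1 CPM and was higher without muscle GR by 0.14 (interval 0.02 to 0.26) in lean and 0.26 (0.14 to 0.38) in ob/ob mice on the log2 scale. These differences in Cry2 were far under 2-fold.

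Of the REV-ERB genes, Nr1d1 moved with muscle GR in opposite directions on the 2 backgrounds. It stood at 217 CPM (211 to 223) in lean GRf/f, 255 CPM (248 to 262) in lean GRmKO, 209 CPM (203 to 215) in ob/ob GRf/f and 159 CPM (153 to 164) in ob/ob GRmKO muscle. The GRmKO libraries were thus the highest and the lowest, and those of GRf/f lay between with overlapping intervals. Without muscle GR its log2 ratio was 0.23 (0.18 to 0.29) in lean and -0.40 (-0.46 to -0.33) in ob/ob mice, and the obesity effect was -0.06 in GRf/f (0.05 under TMM) and -0.69 in GRmKO muscle, -0.63 apart (-0.72 to -0.54). Nr1d1 shares 263 exonic bases with Thra, the thyroid hormone receptor α gene on the opposite strand, and whether reads were assigned by strand is not given in the sources used here. Thra was found at 63.7, 73.9, 68.1 and 55.4 CPM, also highest in lean GRmKO and lowest in ob/ob GRmKO muscle, and its part in the Nr1d1 values was not tested. Leukocyte markers (396, 507, 251 and 185 CPM summed) and endothelial markers (501, 587, 393 and 353 CPM summed) had the same order of libraries as Nr1d1, with 5 of 8 leukocyte and 1 of 6 endothelial markers at least 2-fold lower with obesity in GRmKO muscle, and their part in the Nr1d1 values was not tested. Nr1d2 was found at 151, 132, 127 and 111 CPM, with log2 ratios of -0.25 and -0.25 for obesity and -0.19 and -0.20 for GR loss, so that lean GRf/f was highest and ob/ob GRmKO lowest. Under TMM these obesity ratios of Nr1d2 were -0.14 and -0.05.

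Dbp, the D-box activator, had the largest obesity difference of the 10 genes in both genotypes. It was found at 175 CPM (169 to 181) in lean GRf/f and 155 CPM (150 to 161) in lean GRmKO muscle, and at 67.9 CPM (64.4 to 71.5) in ob/ob GRf/f and 72.3 CPM (68.7 to 76.1) in ob/ob GRmKO muscle. The lean and ob/ob libraries were far apart and the ob/ob libraries overlapped. It was 2.58-fold lower in ob/ob GRf/f than in lean GRf/f mice (log2 ratio -1.37, interval -1.46 to -1.28) and 2.15-fold lower in ob/ob GRmKO than in lean GRmKO mice (-1.10, -1.19 to -1.01). When libraries were scaled by TMM instead, these log2 ratios were -1.26 and -0.90, the second no longer past 2-fold. Without muscle GR the log2 ratio of Dbp was -0.17 in lean and 0.09 in ob/ob mice. Dbp overlaps the end of Sphk2 on the opposite strand, but the listed transcripts share 0 exonic bases and Sphk2 was found at 9.11 to 15.3 CPM.

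Markers of red blood cells moved with Dbp. All 5 erythroid markers differed by at least 2-fold in both genotypes, with the ob/ob libraries lower, and their summed level was 2228, 2126, 970.3 and 872 CPM. In bulk tissue, fewer cells of a type and less RNA per cell cannot be told apart, and the part of the erythroid difference in the Dbp values was not tested. The leukocyte and endothelial sums were also lower in both ob/ob libraries, and of these markers Cd3e was under 3 counts in every library. Adipocyte markers summed to 1136, 722, 802 and 516 CPM, highest in lean GRf/f muscle as Per1 and Per2 were. Their sum was lower without muscle GR on both backgrounds, as Per1 was. Of the 8 markers, 2 were at least 2-fold lower in lean GRmKO than in lean GRf/f mice. In ob/ob GRmKO compared with ob/ob GRf/f mice, 1 of these 8 markers was. With obesity they did not move together: in each genotype 2 were at least 2-fold lower and 1 (Lep) higher. Lep stood at 14.1, 5.89, 69.6 and 42.1 CPM and Cfd at 267, 145, 14.4 and 8.91 CPM. The part of the adipocyte markers in the Per1 and Per2 values was not tested either. Slow-fibre markers summed to 519, 692, 1152 and 1646 CPM, with 6 of 9 at least 2-fold higher with obesity in GRf/f and 7 of 9 in GRmKO muscle, opposite in direction to Dbp and Arntl, and their part in those values was not tested. Fibroblast markers summed to 3989, 4427, 6986 and 4050 CPM and Schwann cell markers to 346, 434, 485 and 421 CPM.

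**Figure D2:**
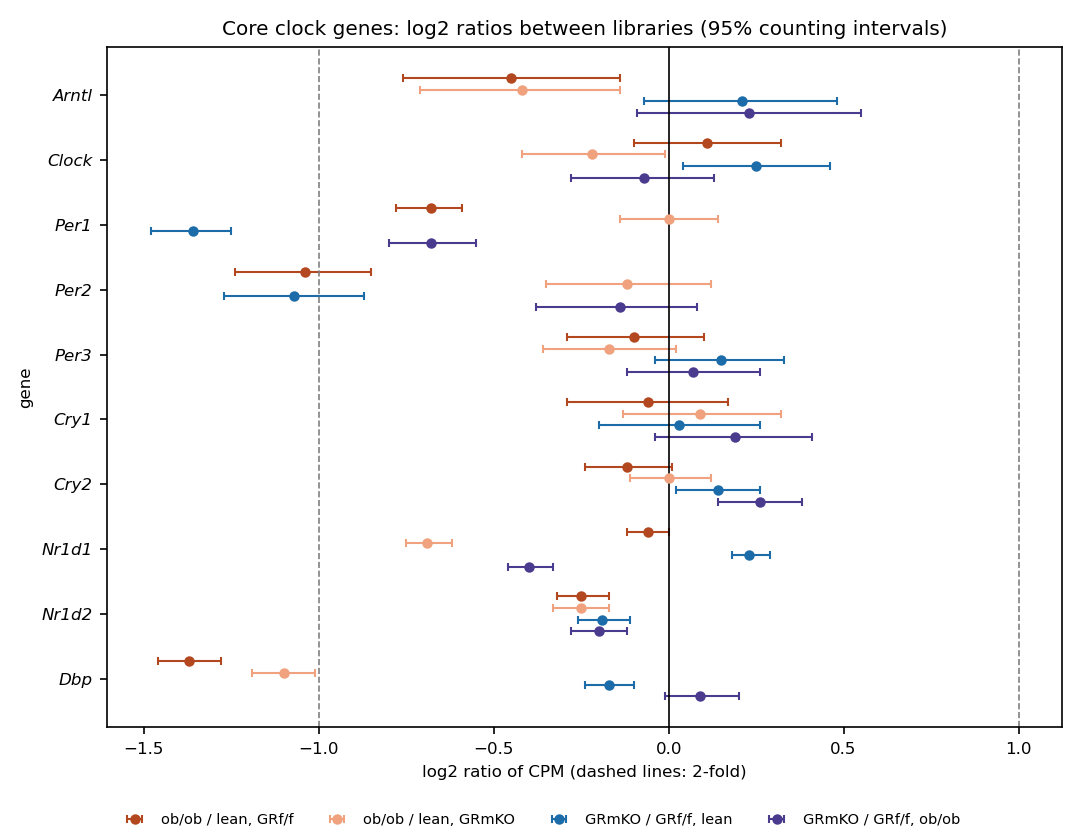
Log2 ratios of CPM (horizontal axis) for the 10 core clock genes in the 4 comparisons, with 95% intervals that cover counting error only, and dashed lines at 2-fold. Dbp lies beyond the 2-fold line in both ob/ob to lean comparisons (-1.37 and -1.10), Per1 beyond it for GR loss in lean mice (-1.36), and Per2 at it in the comparisons that use the lean GRf/f library (-1.04 and -1.07).

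Counted over the 10 genes, 2 (Per2 and Dbp) were at least 2-fold lower in ob/ob than in lean GRf/f muscle and 0 were higher, where 6.98% of all 14206 genes were lower and 3.4% higher. In GRmKO muscle 1 gene (Dbp) was lower and 0 were higher with obesity, where 10.8% of genes were lower and 3.41% higher, so the share of clock genes was near the background. Without muscle GR, 2 genes (Per1 and Per2) were lower and 0 higher in lean mice, where 3.56% of genes were lower and 4.13% higher, and 0 were past 2-fold in ob/ob mice, where 4.99% were lower and 4.05% higher. Among the 9068 genes with at least 100 counts, which all 10 clock genes reached, the shares past 2-fold in either direction were 2.3% for obesity in GRf/f, 4.79% for obesity in GRmKO, 1.05% for GR loss in lean and 1.73% for GR loss in ob/ob mice. At 1.5-fold the counts were 3 (Per1, Per2 and Dbp), 2 (Nr1d1 and Dbp), 2 (Per1 and Per2) and 1 (Per1) of 10, beside 24.5%, 31.8%, 17.2% and 20.8% of all genes. The median log2 ratio of the 10 genes was -0.18, -0.19, 0.09 and -0.00 in these comparisons, close to the medians of all genes. The obesity effects of the 2 genotypes were at least 2-fold apart for 0 of the 10 clock genes and for 2.49% of the 9068 genes, with Per2 nearest at 0.92 on the log2 scale (1.02, and so 1 gene, under TMM). Counting intervals lay on opposite sides of 0 in the 2 genotypes or backgrounds of a contrast for 1 of the 10 genes (Nr1d1) and for 12% of the 9068 genes. The differences past 2-fold thus lay in Per1, Per2 and Dbp.

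Ratios of 2 clock genes inside 1 library do not depend on how libraries are scaled to each other, so they were used to compare pairs of these genes between groups. They recombine the levels given above. They are ratios of counts and do not rank the genes by level. Dbp to Arntl, an E-box output over the activator that peaks opposite to it, was 17.2 (15.0 to 19.9) in lean GRf/f, 13.3 (11.6 to 15.2) in lean GRmKO, 9.15 (7.73 to 10.8) in ob/ob GRf/f and 8.28 (7.10 to 9.70) in ob/ob GRmKO muscle. Both ob/ob libraries lay below both lean libraries, with intervals apart. Nr1d1 to Arntl, a ratio of the same kind, did not follow: it was 21.4, 21.8, 28.1 and 18.2, highest in ob/ob GRf/f and lowest in ob/ob GRmKO muscle. Per1 to Dbp was 0.605 (0.574 to 0.639), 0.265 (0.245 to 0.287), 0.971 (0.901 to 1.05) and 0.569 (0.523 to 0.620), lower without muscle GR and higher with obesity within each pair of libraries. Per1 to Per2 was 3.27, 2.67, 4.19 and 2.89, also lower in GRmKO than in GRf/f libraries. Its intervals overlapped in lean mice (3.00 to 3.57 and 2.34 to 3.06) and were apart in ob/ob mice (3.71 to 4.74 and 2.54 to 3.31). Cry1 to Cry2 was 0.300, 0.278, 0.312 and 0.296, with all intervals overlapping. Nr1d1 to Nr1d2 was 1.44, 1.93, 1.64 and 1.43, highest in lean GRmKO muscle.

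**Figure D3:**
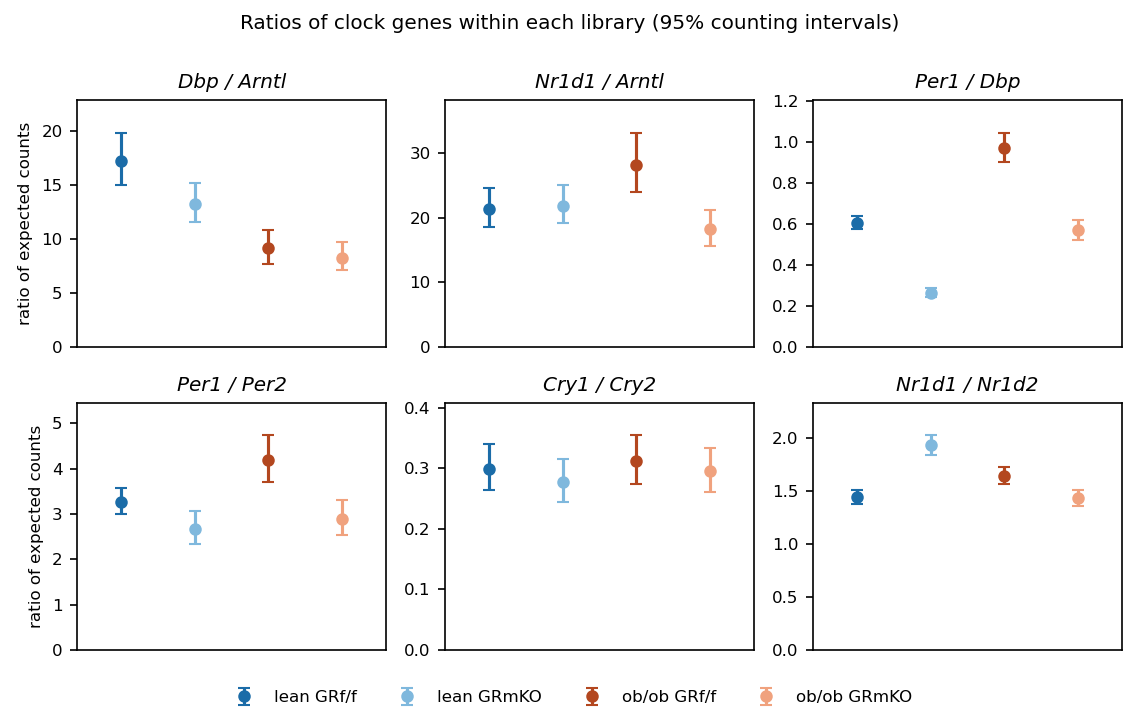
Ratios of expected counts of 2 clock genes within each library (vertical axes, starting at 0) with exact 95% binomial intervals, for the lean GRf/f, lean GRmKO, ob/ob GRf/f and ob/ob GRmKO libraries. Dbp to Arntl is lower in both ob/ob libraries (9.15 and 8.28) than in both lean libraries (17.2 and 13.3), Per1 to Dbp is lowest in lean GRmKO muscle (0.265), and Cry1 to Cry2 stays between 0.278 and 0.312.

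Levels were compared between genes per kilobase of the transcript listed for each gene. On that scale Dbp (95.3 CPM per kb) and Nr1d1 (79.7 CPM per kb) led in lean GRf/f muscle, and Clock was last with 1.79 CPM per kb, a span of 53.2-fold. Dbp was first in that library, while Nr1d1 was first in lean GRmKO (93.8 against 84.6 CPM per kb for Dbp), ob/ob GRf/f (76.7 against 37.0) and ob/ob GRmKO muscle (58.3 against 39.4). Nr1d2 came next after this pair, and Clock was last, in all 4 libraries. Per1 stood above Cry2 in the GRf/f libraries and below it in the GRmKO libraries, at 22.7, 8.83, 14.1 and 8.82 CPM per kb. The listed transcript of Dbp (ENSMUST00000080885, 1837 bases) is the shortest of the 10 and that of Clock (ENSMUST00000202651, 9744 bases) the longest.

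The partners of the clock were described from 4 lists. Of 14 genes of the second loop and the accessory repressors, 13 had counts in all libraries (Timeless was listed at 0 in lean GRmKO muscle). In ob/ob compared with lean mice 2 of the 13 were at least 2-fold lower in GRf/f (Ciart and Arntl2, the latter with 23.2 and 6.83 counts) and 0 in GRmKO muscle, beside 6.98% and 10.8% of all genes. Without muscle GR 2 were lower (Ciart and Nfil3) and 1 higher (Npas2) in lean mice, beside 3.56% and 4.13% of all genes, and 1 was higher (Arntl2) in ob/ob mice, beside 4.05%. Counts of 0 or 1 in 13 are near these shares. The median log2 ratio of this list was -0.31, -0.32, -0.20 and -0.18 for obesity in GRf/f, obesity in GRmKO, GR loss in lean and GR loss in ob/ob mice, where all genes had -0.11, -0.21, 0.05 and -0.04. None of the 17 measured kinases, ligases and phosphatases, such as Csnk1d and Csnk1e that set the stability of PER proteins, and none of the 16 coregulators passed 2-fold in any comparison, which is near the 1.05% to 4.79% of genes with at least 100 counts that did.

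Ciart, a repressor of BMAL1 and CLOCK with the E-boxes shown above, had the pattern of Per2. It was found at 14.3 CPM (12.7 to 16.0) in lean GRf/f, 3.76 CPM (2.96 to 4.72) in lean GRmKO, 3.57 CPM (2.81 to 4.49) in ob/ob GRf/f and 2.86 CPM (2.19 to 3.69) in ob/ob GRmKO muscle. It was 4.01-fold lower in ob/ob GRf/f and 3.80-fold lower in lean GRmKO mice than in the lean GRf/f library that both comparisons share, and its obesity effects differed by 1.61 on the log2 scale. Nfil3, which represses the D-boxes that DBP activates, was found at 41.3, 16.8, 28.4 and 25.03 CPM, 2.46-fold lower in lean GRmKO than in lean GRf/f muscle. With obesity Nfil3 was lower in GRf/f (-0.54) and higher in GRmKO muscle (0.58). Npas2, a stand-in for CLOCK, was lowest in lean GRf/f muscle with 1.97 CPM, beside 4.36, 2.86 and 3.71 CPM in the others, from 40.9 to 86.8 counts.

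The other D-box activators lay nearer to level than Dbp. Tef was found at 154, 153, 124 and 122 CPM, with obesity ratios of -0.31 and -0.33, and Hlf at 31.1, 26.1, 21.7 and 18.8 CPM, with obesity ratios of -0.52 and -0.47. All 3 genes of this family were thus lower in both ob/ob libraries, Dbp by the most. The median gene was also lower in the ob/ob libraries, by a log2 ratio of -0.11 in GRf/f and -0.21 in GRmKO muscle. Measured from that median, the obesity ratios were -0.19 and -0.12 for Tef, -0.41 and -0.26 for Hlf and -1.25 and -0.90 for Dbp. Rora, an activator of Arntl, was found at 97.4, 81.3, 109 and 94.9 CPM, highest in ob/ob GRf/f and lowest in lean GRmKO muscle. The repressors Bhlhe40 (179, 176, 144 and 141 CPM) and Bhlhe41 (79.0, 84.9, 68.7 and 56.5 CPM) were lower in ob/ob libraries. From the median gene their obesity ratios in GRf/f and GRmKO were -0.20 and -0.12 for Bhlhe40 and -0.09 and -0.38 for Bhlhe41. Usp2, a deubiquitinase that is itself rhythmic, was found at 191, 108, 154 and 116 CPM, lower without muscle GR by -0.82 in lean and -0.41 in ob/ob mice, as Per1 was.

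**Figure D4:**
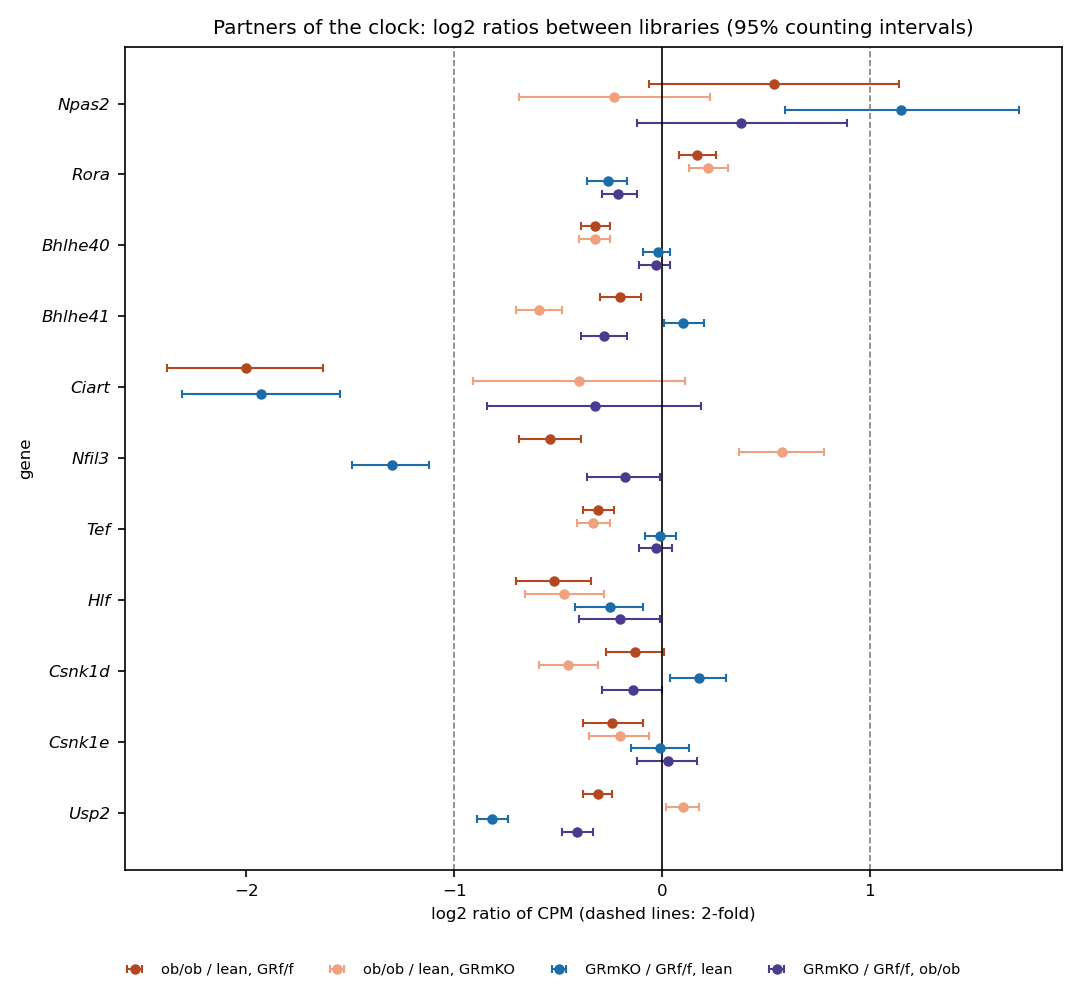
Log2 ratios of CPM (horizontal axis) for 11 partners of the clock in the 4 comparisons, with 95% intervals that cover counting error only, and dashed lines at 2-fold. Ciart lies near -2 in the comparisons that use the lean GRf/f library (-2.00 and -1.93), Nfil3 lies on opposite sides of 0 for obesity in GRf/f and GRmKO muscle (-0.54 and 0.58), and Tef, Csnk1e and Bhlhe40 stay well inside the lines.

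Of 15 clock-controlled output genes, 1 was at least 2-fold lower with obesity in GRf/f muscle (Pdk4), 1 lower (Tspan4) and 1 higher (Cdkn1a) with obesity in GRmKO muscle, 0 differed with GR loss in lean mice, and 1 was higher with GR loss in ob/ob mice (Pdk4). These counts are near the shares of all genes, 6.98% lower for obesity in GRf/f, 10.8% lower and 3.41% higher for obesity in GRmKO and 4.05% higher for GR loss in ob/ob mice. For GR loss in lean mice the shares were 3.56% lower and 4.13% higher. Fewer genes passed 2-fold among those with at least 100 counts in each library, as all of these output genes had. Their shares in either direction were 2.3%, 4.79%, 1.05% and 1.73% in the 4 comparisons. The 1 gene in 15 for obesity in GRf/f and for GR loss in ob/ob mice exceeds its share. So do the 1 lower and 1 higher for obesity in GRmKO muscle, while 0 passed for GR loss in lean mice. Counts this small are not read as a result about the list. The median log2 ratio of the 15 genes was -0.25, -0.19, -0.30 and -0.11 in the 4 comparisons. Pdk4, the kinase that shuts pyruvate out of the mitochondrial cycle, was found at 402, 349, 173 and 372 CPM, low in ob/ob GRf/f muscle alone. Tspan4, a membrane tetraspanin, was found at 19.5, 14.7, 9.90 and 7.00 CPM, and Cdkn1a, the cell cycle inhibitor p21, at 38.4, 28.4, 44.0 and 60.7 CPM.

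The genes nearest to 3 of the clock genes in pattern were taken as those with the smallest distance between centred log2 CPM over the 4 libraries, among genes with at least 100 counts in each. Nearest to Dbp were Tcim (59.1, 49.8, 23.0 and 23.6 CPM), Pxdn, the β-globin genes Hbb-bs and Hbb-bt, and Ifi211, so that 2 of the 5 were erythroid genes. Nearest to Arntl were Ttc38, Asb15, Atp5j, Cox7a2l and Eif4a2, and nearest to Per1 were Arhgap27 (20.3, 8.38, 12.1 and 8.18 CPM), Samd4b, Odc1 (179, 80.8, 114 and 84.4 CPM), Tob2 and Phyhd1. None of these 15 genes was a clock gene of the lists above. With 4 libraries such a likeness is a description only.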

How the data were processed

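Gastrocnemius RNA was sequenced as 1 library per group from pooled RNA of 3 mice. The authors quantified mouse (mm10) transcripts with Salmon 1.2.1 and summarized them to genes in R 3.5.0, per the labels' processing notes and the methods, and deposited the expected counts without scaling the libraries to each other. The methods name an import option (lengthScaledTPM) that rebuilds gene counts from transcript abundances, so such values are not raw read counts. The intervals treat the deposited values as counts. Counts were converted to CPM of the library total. CPM ratios were taken for the 14206 genes that no library listed at 0. Levels were given exact Poisson and ratios exact conditional binomial 95% intervals on rounded counts (the difference of 2 obesity effects, an approximate normal interval), with scipy 1.17.1, covering counting error only. The interval code was tested on simulated data. With 1 library per group no test was run. Positions, exons and lengths came from GENCODE on GRCm38. Named genes were all 10 members, fixed partners (some not reported here), list genes past 2-fold where either library reached 50 counts, and the 5 nearest in pattern to Dbp, Arntl and Per1. Arntl2 and the output genes among the other observations were named outside this rule after their values were seen. Scaling alternatives used edgeR 4.0.16 (TMM, upper quartile) and DESeq2 1.42.0 factors. The members, lists and fold were chosen with earlier results of these data known.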

Additional observations from a re-analysis of the deposited data

Results flagged for a closer look

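Of 27 genes examined (the clock genes, the partners and Nr3c1), 6 had effects of opposite sign in the 2 genotypes or backgrounds of the same contrast, each with a counting interval that left out 0. The same held for 12% of the 9068 genes that reached 100 counts throughout. Cdkn1a, Tspan4 and Pdk4 were among the 27 only because they passed 2-fold in these data, and Cdkn1a and Pdk4 are among the 6. The 2 shares therefore cannot be weighed against each other. These differences were not tested, since each group was 1 library. The effect of GR loss in ob/ob minus that in lean mice was -0.63 on the log2 scale for Nr1d1 (0.23 in lean, -0.40 in ob/ob), -0.39 for Bhlhe41, 0.90 for Cdkn1a and 1.31 for Pdk4. The obesity effect in GRmKO minus that in GRf/f muscle was 1.12 for Nfil3 (-0.54 in GRf/f, 0.58 in GRmKO), 0.41 for Usp2 and 1.31 for Pdk4, which had opposite signs in both contrasts. When the libraries were scaled by TMM the difference for Nr1d1 was -0.53. For Bhlhe41 the log2 ratio for GR loss in lean mice was only 0.10 (0.01 to 0.20). TMM moved the median gene of that comparison by -0.06, enough for the Bhlhe41 interval to span 0.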

How the results depend on the processing

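No paired analysis was possible because each group was 1 library with no replicate of its own, and for the same reason no replicate could be left out. Under TMM, DESeq2 and upper quartile scaling, the clock genes at least 2-fold lower with obesity numbered 1 (Dbp) in place of 2 in GRf/f and 0 in place of 1 in GRmKO muscle, where Dbp stood at -0.90, -0.89 and -0.96 on the log2 scale. At 1.5-fold they numbered 2 (Nr1d1 and Dbp) with obesity in GRmKO muscle and 1 (Per1) with GR loss in ob/ob mice. The counts for GR loss in lean mice were 2 under every setting. TMM moved the median gene by 0.11 with obesity in GRf/f and by 0.21 in GRmKO muscle. Of 250 single values under 5 other scalings, 217 stayed within the counting interval and 33 did not, and the small obesity ratios of Nr1d1 in GRf/f and of Per1 and Per3 in GRmKO muscle became 0.05, 0.20 and 0.04 under TMM. All genes past 2-fold numbered 1474, 2021, 1092 and 1284 for obesity in GRf/f, obesity in GRmKO, GR loss in lean and GR loss in ob/ob mice. They numbered 702, 1205, 397 and 552 with at least 10 counts in every library, 209, 434, 95 and 157 with at least 100, 4384, 4266, 4027 and 3304 with no filter, and 3482, 4512, 2445 and 2959 at 1.5-fold. Of the 5 genes nearest in pattern, correlation in place of distance kept 0 for Dbp, 2 for Arntl and 0 for Per1. The longest coding transcript in place of the listed one swapped Arntl and Per3 in the per-length order of lean GRmKO muscle. Pooling, 1 library per group and the missing time of collection limit every comparison: a level that cycles over the day is a single point here, and the spread between mice is unknown.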

Other observations

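Among the clock-controlled output genes, several that stayed under 2-fold had orders of libraries that can be set beside those of the clock genes, and they were picked after their values were seen. Wee1, a mitotic kinase driven through E-boxes, was found at 15.4 CPM in lean GRf/f, 8.45 CPM in lean GRmKO, 8.30 CPM in ob/ob GRf/f and 7.38 CPM in ob/ob GRmKO muscle, with lean GRf/f alone high as for Per2 and Ciart. Nampt, the rate-limiting enzyme of NAD salvage, was found at 203, 155, 145 and 123 CPM in the same order of groups. Myod1, a myogenic factor, was found at 30.7, 47.1, 20.8 and 39.6 CPM and Lonrf1 at 10.2, 15.8, 9.70 and 19.1 CPM, both higher in the GRmKO library of each background. Other genes of that list were lower there on both backgrounds: Por was found at 54.8, 43.3, 42.9 and 34.1 CPM, Alas1 at 101, 76.9, 118 and 84.9 CPM, and Slc2a4 at 778, 621, 669 and 492 CPM. The median log2 ratio of the whole list for GR loss was -0.30 in lean and -0.11 in ob/ob mice, beside 0.05 and -0.04 for all genes.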
